A study of Mus musculus with 6 samples.

Results

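The genes described here are the simple keratins Krt7, Krt8, Krt18, Krt19 and Krt20, the type III intermediate filament genes Vim and Des, and the lamin genes Lmna and Lmnb1. These 9 genes were chosen by symbol from 19938 genes measured, and each had 1 probe set that named no other gene. The study placed mouse induced pluripotent stem cells (iPSCs, fibroblasts reprogrammed to pluripotency) beside published naive and primed cells. Its own 6 arrays held total RNA of bulk cultures, 3 labelled primed and 3 labelled naive. Primed cells grew in medium conditioned by mouse embryonic fibroblasts with basic FGF at 8 ng/ml, on feeder cells or matrigel. Naive cells grew with 15% bovine serum and with LIF, the leukaemia inhibitory factor, at 1000 U/ml. The titles derive the primed lines from adult dermal fibroblasts and the naive lines from embryonic fibroblasts, while another label gives embryonic fibroblasts for all 6 arrays. By the titles, culture state and cell of origin cannot be told apart. The labels do not give genotype, strain, age, the number of lines or which arrays had feeders.

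Intermediate filaments are flexible rods of paired protein chains that carry mechanical load. Keratins form them only as pairs of a type I chain and a type II chain. Krt8 (type II) and Krt18 (type I) form the keratin pair of simple epithelia and are among the first intermediate filament genes used by the mouse embryo. Vimentin is typical of mesenchymal cells and cultured cells, desmin of muscle, and lamins line the inside of the nuclear envelope. B-type lamins are made by nearly all cells, whereas A-type lamins are low in early embryonic cells and increase with differentiation.

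Markers that separate the naive from the primed state, a list added after the data were seen, went both with and against the group labels. Of 10 naive-state markers, 2 were higher in cells labelled primed, 5 were lower and 3 did not pass (limma, adjusted p under 0.05 over all genes). By this rule 21.8% of all genes were higher and 22.7% lower. Of the 3 that did not pass, Zfp42 and Prdm14 lay in background in both groups, by the cutoff given below with Krt7. Klf4 was among the 5 lower markers, but its call ended without primed replicate 2 (limma adjusted p = 0.087) or naive replicate 2 (adjusted p = 0.080). Dppa3 lay in background on all primed arrays, by the same cutoff. It followed the labels, with 6.18 ± 0.11 in primed and 8.99 ± 0.15 in naive cells (log2 RMA value, SD, n = 3 each). Esrrb, a naive-state transcription factor, went against them, with 11.24 ± 0.02 in primed and 8.25 ± 0.11 in naive cells, as did Nr0b1 with 9.94 ± 0.09 and 7.66 ± 0.16. Of 8 primed-state markers, 3 were higher in cells labelled primed, among them Otx2 with a difference of 0.92, and 3 were lower. Fgf5, a growth factor gene typical of the primed state, was among the lower ones, with 8.90 ± 0.03 in primed and 10.61 ± 0.09 in naive cells. Each direction below is therefore that between the arrays labelled primed and those labelled naive.

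Of the 9 genes, 7 were lower in primed than in naive iPSCs, 0 were higher and 2 did not pass (limma, Benjamini-Hochberg adjusted p under 0.05 over all genes). At an unadjusted p under 0.05 the counts were also 7 and 0. Among all genes 22.7% were lower and 21.8% higher in primed cells by the same rule. With each array centred on its median, the calls over all genes split into 3439 higher and 6325 lower, against 4347 higher and 4529 lower as deposited. Krt7, Krt8, Krt18, Des and Lmna differed at least 2-fold, a size that 1.84% of all genes reached in this direction and 1.71% in the other. The median difference over the 9 genes was -1.17, against -0.0015 over all genes. Each difference given is the primed mean less the naive mean, in log2 RMA units, in which 1 unit is 2-fold. The arrays are called biological replicates without a statement of what was repeated, so p-values cover the spread between these 3 arrays per group, which may be technical. In bulk RNA, fewer cells that express a gene and less RNA per cell cannot be told apart.

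**Figure D1:**
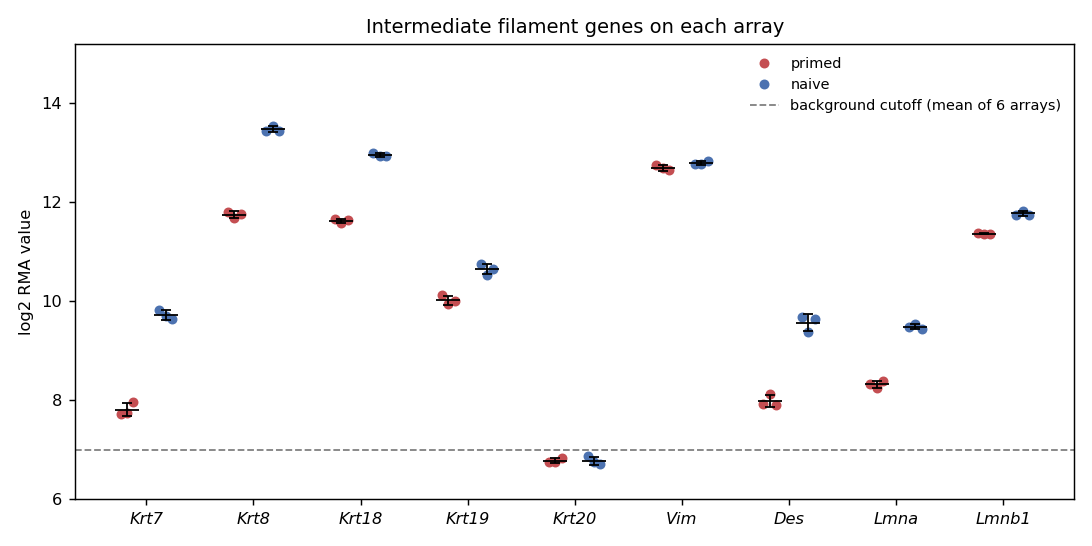
Log2 RMA value (vertical axis) of each of the 9 genes on the 3 primed arrays (red, left) and the 3 naive arrays (blue, right), with mean and SD as bars. The dashed line is the mean background cutoff. Primed points lie below naive points for all genes shown but Krt20, and the gap for Vim is very small.

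The promoters of the 4 members with the largest fall are shown because these genes differed most between the groups. Each run covers 250 bases before the RefSeq start site and the first 10 bases after it in assembly GRCm38.p6, on the strand of the gene. Capitals mark every match, on either strand, to common core promoter boxes and to motifs of the AP-1, GATA and AP-2 factors, whose letters are given with the counts that follow. The windows are chr15:101412153-101412412 (plus strand) for Krt7, chr15:102004333-102004592 (minus strand) for Krt8, chr15:102027966-102028225 (plus strand) for Krt18 and chr1:75360042-75360301 (plus strand) for Des.
Krt7: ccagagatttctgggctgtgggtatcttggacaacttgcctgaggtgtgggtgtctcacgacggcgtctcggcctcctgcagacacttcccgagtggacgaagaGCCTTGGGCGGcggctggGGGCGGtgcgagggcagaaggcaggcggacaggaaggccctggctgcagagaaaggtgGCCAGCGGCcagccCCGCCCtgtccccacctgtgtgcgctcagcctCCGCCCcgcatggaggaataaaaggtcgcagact
Krt8: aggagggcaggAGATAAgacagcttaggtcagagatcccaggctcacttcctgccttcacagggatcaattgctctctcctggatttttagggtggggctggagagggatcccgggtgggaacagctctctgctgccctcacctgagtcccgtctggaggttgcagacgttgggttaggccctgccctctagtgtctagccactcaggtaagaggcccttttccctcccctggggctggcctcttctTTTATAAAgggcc
Krt18: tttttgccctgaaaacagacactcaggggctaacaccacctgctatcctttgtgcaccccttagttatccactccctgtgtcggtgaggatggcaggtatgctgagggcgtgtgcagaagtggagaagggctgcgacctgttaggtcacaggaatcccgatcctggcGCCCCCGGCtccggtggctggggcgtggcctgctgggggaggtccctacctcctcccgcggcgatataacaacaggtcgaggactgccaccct
Des: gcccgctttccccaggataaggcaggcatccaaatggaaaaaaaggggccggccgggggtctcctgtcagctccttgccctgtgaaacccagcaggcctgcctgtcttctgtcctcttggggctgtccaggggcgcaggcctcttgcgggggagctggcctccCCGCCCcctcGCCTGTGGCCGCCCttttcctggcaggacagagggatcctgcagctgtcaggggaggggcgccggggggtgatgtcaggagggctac

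No motif searched was in all 4 promoters. The GC box, searched as GGGCGG, occurred at 4 places in Krt7 and at 2 in Des, and it is present in 35.7% of 32851 windows of 300 bases in the RefSeq table. The AP-2 motif, searched as GCCNNNGGC, occurred in Krt7, Krt18 and Des and in 16.6% of all windows. Of its matches, 1 in Krt7 and the match in Des overlap a GC box. In Krt8 matches to the TATA box, searched as TATAAA, overlapped on opposite strands and began at -3 and -1 from the annotated start, and 13.6% of all windows hold this motif. The GATA motif, searched as AGATAA, was found in Krt8 at -239, and in 11.2% of windows. The AP-1 motif, searched as TGANTCA, was not in these 4 windows and is in 7.81% of all windows. The last box searched, CCAAT, was likewise not in these 4 windows and is in 37.4% of all windows. Of the 9 genes, 7 had a window in the table, and a match of letters is not evidence that a factor binds.

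Krt8, the type II keratin of simple epithelia, had log2 RMA values of 11.81, 11.69 and 11.76 on the primed arrays, against 13.45, 13.55 and 13.45 on the naive arrays. The groups were far apart relative to the spread within each, and Krt8 was bright in both. It averaged 11.75 ± 0.06 in primed cells and 13.48 ± 0.06 in naive cells (SD, n = 3 each). The difference of -1.73 (SE 0.06, limma adjusted p = 1.3e-09) put the primed level at 0.301 times the naive level. Only 0.466% of all genes fell by more.

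Krt18, the type I partner of Krt8, read 11.65, 11.58 and 11.64 in primed cells, against 12.99, 12.93 and 12.94 in naive cells. Its groups did not overlap either. Its difference of -1.33 (SE 0.05, limma adjusted p = 4.5e-09) corresponds to 0.398 times the naive level. Within each array, Krt8 minus Krt18 shifted by -0.40 between primed and naive cells, with SDs of 0.03 among primed and 0.08 among naive arrays. The measured fall of Krt8 was thus larger than that of Krt18. The exact two-sided permutation p was 0.1, the smallest that 3 arrays against 3 can give, and 0.1 after adjustment over the 3 pairs of genes compared this way.

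Krt7, a type II keratin of ducts and of trophoblast, had 7.72, 7.73 and 7.95 in primed cells, against 9.83, 9.71 and 9.63 in naive cells. It showed the largest difference of the 9 genes, -1.92 (SE 0.08, limma adjusted p = 5.0e-09), and ranked 69 of 19938 genes by its fall. The primed level was 0.264 times the naive level. The background cutoff of an array, between 6.96 and 7.03, was taken from 1190 receptor genes of smell and pheromone sensing as their 95th percentile. Krt7 stayed above this on all arrays.

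Krt19, a type I keratin that lacks most of the usual tail domain, had 10.12, 9.94 and 10.003 in primed cells, against 10.75, 10.54 and 10.66 in naive cells. The groups did not overlap, yet the gap was far smaller than that of Krt7. The difference was -0.63 (SE 0.07, limma adjusted p = 1.7e-05), or 0.647 times the naive level. Krt7 minus Krt19 within an array shifted by -1.29 (exact two-sided permutation p = 0.1, also 0.1 adjusted).

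Krt20, a type I keratin of gut and urothelium, stood apart from the other simple keratins. It lay in background on all arrays, at 6.75, 6.75 and 6.83 in primed cells and 6.86, 6.74 and 6.71 in naive cells. The groups overlapped, with a difference of 0.0031 (95% interval -0.12 to 0.13, limma adjusted p = 0.97). At this signal the array does not show whether the gene was used at different low levels.

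Des, the type III filament gene of muscle, read 7.92, 8.12 and 7.90 in primed cells, against 9.68, 9.38 and 9.64 in naive cells. Naive replicate 2 was the lowest naive array and primed replicate 2 the highest primed array, and the groups still lay apart. The difference was -1.59 (SE 0.09, limma adjusted p = 6.3e-08), or 0.333 times the naive level. Vim, of the same type, did otherwise. It had 12.76, 12.69 and 12.64 in primed cells, against 12.76, 12.78 and 12.83 in naive cells, so that the groups touched at the second decimal. Its difference of -0.09 (95% interval -0.21 to 0.02, limma adjusted p = 0.19) did not pass. The sign turned to 0.01 with quantile normalization, and with each array centred on its median the difference was -0.16 and passed (adjusted p = 0.019). Vim therefore had no direction that held under each scaling.

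Lmna, which encodes lamins A and C, had 8.33, 8.24 and 8.38 in primed cells, against 9.47, 9.55 and 9.44 in naive cells. Its difference of -1.17 (SE 0.06, limma adjusted p = 2.8e-08) put it at 0.445 times the naive level. Lmnb1, which encodes lamin B1, read 11.37, 11.35 and 11.36 in primed cells, against 11.74, 11.83 and 11.75 in naive cells. It fell less, with a difference of -0.41 (SE 0.05, limma adjusted p = 4.4e-05), or 0.752 times the naive level. Lmna minus Lmnb1 within an array shifted by -0.76 (exact two-sided permutation p = 0.1, also 0.1 adjusted). The groups did not overlap for either lamin gene.

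**Figure D2:**
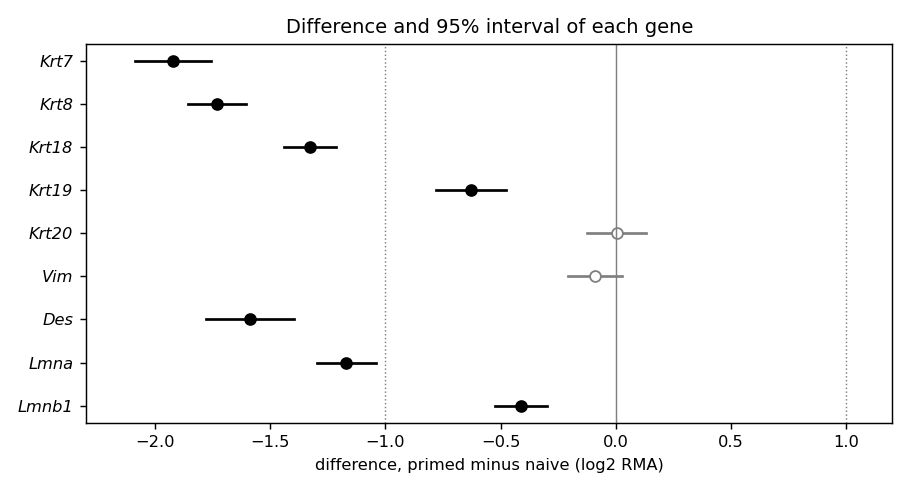
Difference (log2 RMA units, primed less naive) (horizontal axis) with the 95% interval of the limma fit for each gene. Filled points passed an adjusted p under 0.05, open points did not, and dotted lines mark a 2-fold difference. Krt7, Krt8, Krt18, Des and Lmna lie past the 2-fold line on the side of naive cells.

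The values of primed and naive cells did not overlap for 8 of the 9 genes, against 52.9% of all genes. The 7 genes that passed differed by -1.92 to -0.41 on the log2 scale. Profiles were then centred on each gene's own mean and compared by their root mean square distance over the 6 arrays. Krt18 and Lmna were closest among the 9 genes, at 0.09, and Krt7 and Krt8 followed among the genes that fell, at 0.14. Krt8 and Krt18 were 0.21 apart, and Krt7 and Krt19 were 0.66 apart. Among 13092 other coding genes above background in at least 1 group, those nearest to Krt8 were Neto2 (0.04), Dysf (0.04) and Rdh10 (0.05). Nearest to Krt18 were Abcb1b (0.03), Car3 (0.04) and Pmm2 (0.04), and nearest to Krt7 were Anxa2 (0.10), Plet1 (0.10) and Car2 (0.11). With 2 groups of arrays, such a distance reflects mainly a gap of like size.

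Most mouse keratin genes lie in 2 clusters, the type II genes on chromosome 15 with Krt18 at their end, and the type I genes on chromosome 11. In the gene order of GRCm38.p6, Krt7 lies near the other end of the chromosome 15 cluster from the neighbours Krt8 and Krt18. Of 24 keratin genes measured there, 7 were lower in primed cells, 0 were higher, and 8 lay in background in both groups. Krt7, Krt8 and Krt18 are among the 7. By the same rule 22.7% of all genes were lower and 21.8% higher. Between Krt7 and Krt8 the genes that passed were Krt5 (-0.63), a keratin of basal epithelial cells, Krt79 (-0.31) and, within background, Krt4 (-0.28). The call of Krt79 ended without naive replicate 2 (limma adjusted p = 0.077), and that of Krt4 without primed replicate 2, naive replicate 1 or naive replicate 2 (adjusted p of 0.051 to 0.077). Next to Krt18, Eif4b, a translation initiation factor gene, was higher in primed cells (0.19, limma adjusted p = 0.017, but 0.067 without naive replicate 1 and 0.10 with medians centred), and Tns2 beyond it was lower (-0.43, limma adjusted p = 0.00021). On chromosome 11, of 27 keratin genes measured, 7 were lower and 3 higher in primed cells, and 12 lay in background in both groups. Among those 12, the calls of Krt28 and Krt9 also ended without 1 or another array (limma adjusted p of 0.058 to 0.11).

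**Figure D3:**
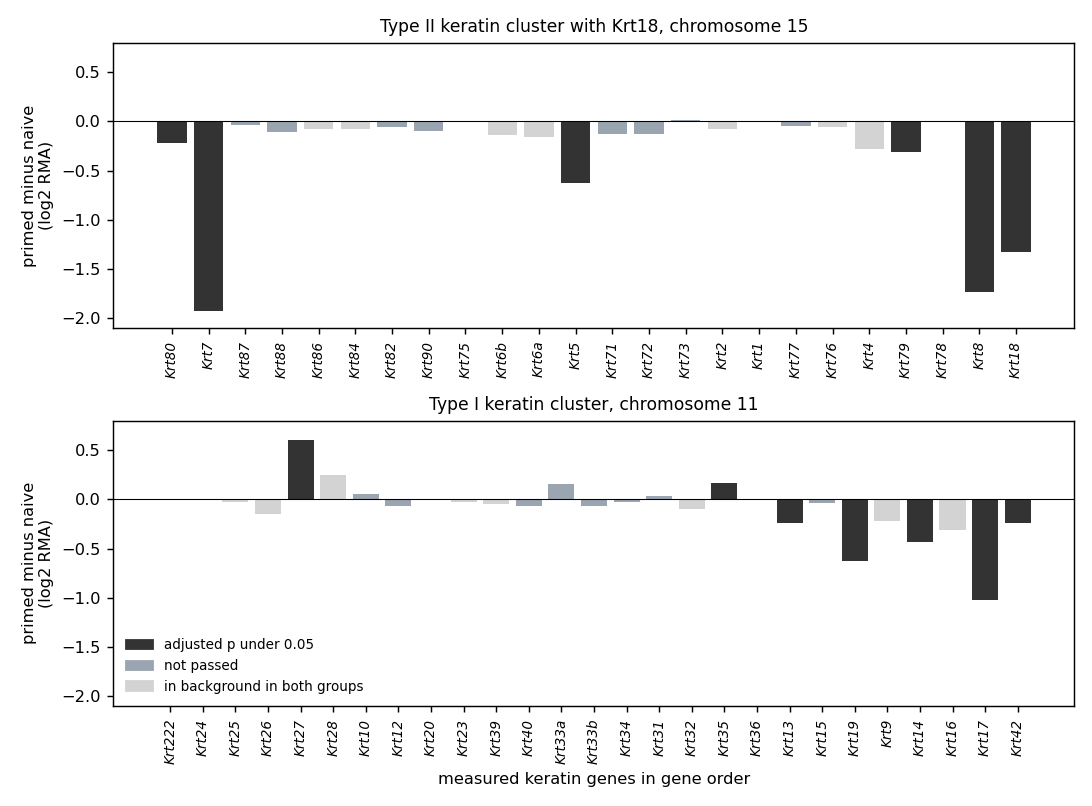
Difference (log2 RMA units, primed less naive) (vertical axis) for the measured keratin genes of each cluster in gene order. Dark bars passed an adjusted p under 0.05, mid-grey bars did not, and light grey marks genes in background in both groups, of which Krt4, Krt28, Krt9 and Krt16 passed. The long bars on chromosome 15 are Krt7, Krt8 and Krt18, with little between them but Krt5.

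Keratins outside the 9 genes were dim, and their highest group mean was 8.92. Of 47 listed, 44 were measured, and 20 lay in background in both groups. In primed cells 10 were lower, a share near the 22.7% of all genes, and 3 were higher, against 21.8% of all genes. Krt17, a type I keratin induced in stressed epidermis, fell by 1.03 (limma adjusted p = 1.0e-06), and Krt14, the partner of Krt5, fell by 0.44 (adjusted p = 0.0035). Krt27, a hair follicle keratin, was higher by 0.60 (adjusted p = 0.0038). The count of 3 higher became 1 without naive replicate 2, without naive replicate 3 or with array medians centred, and 16 were then lower with medians centred. Related keratins share sequence, and cross-hybridisation between their probes was not tested.

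Of 12 other intermediate filament genes, 4 were lower and 3 higher in primed cells, with a median difference of -0.01. Among all genes 22.7% were lower and 21.8% higher, and the share of higher genes in the list was near the latter. Nefl, the neurofilament light chain gene, had 11.84, 11.82 and 11.87 in primed cells, against 10.40, 10.37 and 10.45 in naive cells. It went opposite to the simple keratins by 1.44 (SE 0.05, limma adjusted p = 2.2e-09), while Nefh, the heavy chain gene, fell by 0.69. Synm, which encodes a partner of desmin and vimentin, was higher by 0.48, and Sync, for the desmin-associated protein syncoilin, was lower by a difference of -0.72. Lmnb2, the other B-type lamin gene, had 9.42, 9.24 and 9.27 in primed cells, against 9.54, 9.60 and 9.41 in naive cells. The groups overlapped slightly, and the difference of -0.20 (SE 0.07) passed narrowly (limma adjusted p = 0.029). That call ended without primed replicate 2, primed replicate 3, naive replicate 1 or naive replicate 2 (adjusted p of 0.069 to 0.11).

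Desmosomes and plakin proteins anchor keratin filaments at cell contacts. In this list 10 of 18 genes were lower in primed cells and 0 were higher by limma, also at an unadjusted p under 0.05, and 1 was higher after quantile normalization. The median of the list was -0.22, and 22.7% of all genes were lower and 21.8% higher by limma. Dsp, whose product desmoplakin ties keratins to the desmosome, had 10.47, 10.38 and 10.38 in primed cells, against 11.65, 11.86 and 11.80 in naive cells, a difference of -1.37 (SE 0.06, limma adjusted p = 2.0e-08). The desmosomal cadherin gene Dsg2 differed by -1.02, and Plec, for the cross-linker plectin, by -0.95. Dsc2, another desmosomal cadherin gene, was in background on all primed arrays and at least 2.37-fold lower in primed cells, counted from the background cutoff (limma adjusted p = 1.3e-09). These 4 genes were named for the largest differences among the 10 that passed, all of them lower, so their common direction is no separate result. Of the list, 8 genes did not pass. Among these were the plakin genes Ppl (-0.09), Evpl (-0.03), Dst (-0.04) and Macf1 (-0.04), and also Pkp1 (0.04) and Pkp4 (0.08).

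Of 17 genes that bind or process lamins, 6 were lower and 4 higher in primed cells, with a median of -0.06. Among all genes 22.7% were lower and 21.8% higher, so the share of higher genes was near that of all genes. The count of 4 higher became 2 with medians centred or without primed replicate 2, primed replicate 3, naive replicate 1 or naive replicate 3. The count of 6 lower became 8 with medians centred. It became 4 with quantile normalization, at an adjusted p under 0.01 or without primed replicate 2 or 3 or naive replicate 2 or 3. Zmpste24, the protease that matures lamin A, differed by -0.61 (limma adjusted p = 1.6e-06), and Fnta, a farnesyltransferase subunit gene, by -0.71 (adjusted p = 5.5e-07). Syne2, for the nuclear envelope protein nesprin-2, was higher in primed cells by 1.03 (adjusted p = 4.2e-06), and Lemd2, an inner nuclear membrane protein gene, by 0.45 (adjusted p = 0.00020).

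**Figure D4:**
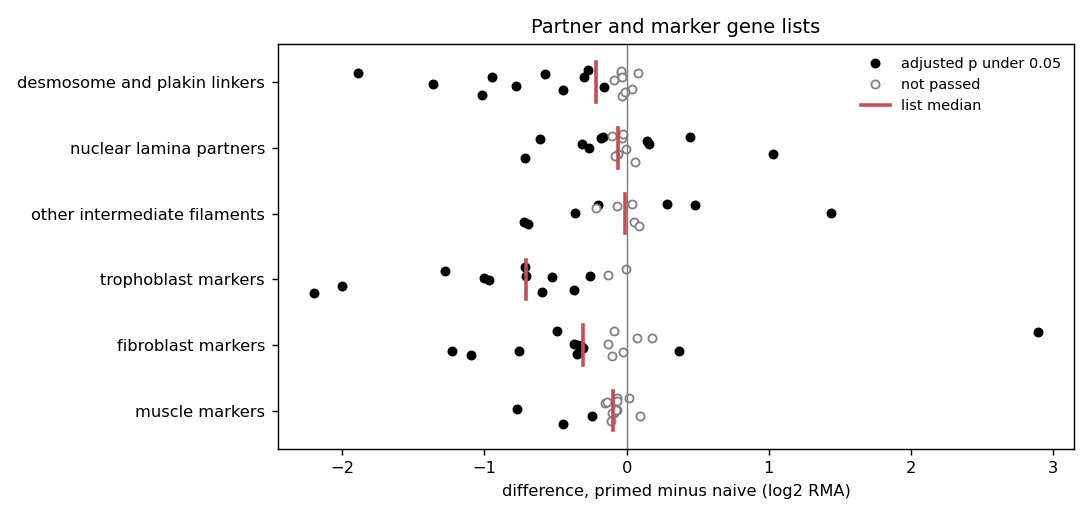
Difference (log2 RMA units, primed less naive) (horizontal axis) for each gene of 6 lists. Filled points passed an adjusted p under 0.05, open points did not, and the red line is the list median. Desmosome and plakin genes and trophoblast markers lie mostly on the naive side, and lamina partners lie on both sides.

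Markers of other cell types that use these filaments were set beside the results. By limma, 22.7% of all genes were lower in primed cells and 21.8% were higher. Trophoblast markers, from a lineage rich in Krt7, Krt8 and Krt18, gave 11 of 13 genes lower in primed cells and 0 higher by limma, with 12 lower and 0 higher at an unadjusted p under 0.05. Their mean level was 7.39 to 7.43 on primed and 8.21 to 8.26 on naive arrays, and their median difference was -0.71. Eomes (-2.20), Plet1 (-2.00), Gata3 (-1.28) and Plac1 (-1.01) differed most. Cdx2 was dimmer, with a mean of 7.36 in primed and 7.73 in naive cells. Elf5 averaged 6.81 in primed cells, in background on all primed arrays, and 7.07 in naive cells. Tpbpa, Esx1 and Psg17 lay in background in both groups, and Psg17 is counted among the lower genes. The part of trophoblast-like expression in the keratin differences was not tested. Epithelial regulators, which share Tfap2c with that list, were lower in 10 of 16 cases and higher in 0 (1 without naive replicate 1), with 11 and 0 at an unadjusted p under 0.05. Tfap2c (-0.72), Esrp2 (-0.67), Grhl2 (-0.67) and Klf5 (-0.58) led them. The 6 that did not pass were Grhl1 (0.02), Ovol2 (0.15), Trp63 (-0.01), Epcam (0.04) and, in background in both groups, Tfap2a and Ehf.

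Muscle markers were set beside Des. Of 14, 3 were lower in primed cells, a share near the 22.7% of all genes, and 0 were higher by limma (5 and 0 at an unadjusted p under 0.05), and 7 were lower with medians centred. Their mean level was 7.47 to 7.54 on primed and 7.65 to 7.70 on naive arrays. Myl4 (-0.77), Myl7 (-0.45) and Actc1 (-0.24) passed, whereas Myog, Myf5, Myh6 and Ttn lay in background in both groups. Acta2 and Tagln, contractile genes typical of smooth muscle that are counted here among the fibroblast markers, were lower by a difference of -1.23 (limma adjusted p = 3.2e-08) and -1.09 (adjusted p = 9.6e-07).

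Fibroblast markers were relevant to Vim, Lmna and feeder cells. Of 17, 9 were lower in primed cells and 2 higher, against 22.7% and 21.8% of all genes. The mean level of the fibroblast markers was 8.24 to 8.29 on primed and 8.38 to 8.39 on naive arrays. Acta2, Tagln and Col1a1 (-0.76) were lower, Dcn was higher by 2.89, and Postn, Lum, S100a4 and Prrx1 lay in background in both groups. Postn and S100a4 are counted among the 9 lower genes. With background genes left out, 7 were lower and 3 higher. The part of fibroblast markers in the Lmna and Des results was not tested. Extraembryonic endoderm markers were lower in 3 of 14 cases, a share near the 22.7% of all genes, and higher in 0 by limma. At an unadjusted p under 0.05 the counts were 3 and 1. Their median difference was -0.05, and Dab2 (-0.63), Col4a1 (-0.39) and Sparc (-0.36) passed. The count of 0 higher became 1 without naive replicate 1, and the 3 lower became 5 with medians centred. Their mean level was 7.76 to 7.79 on primed and 7.84 to 7.91 on naive arrays, with Sox17, Afp, Ttr and Cubn in background in both groups.

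Markers that naive and primed cells share were read as a check that both groups held pluripotent cells. Nanog is in this list and also among the naive-state markers counted above. None of the 8 lay in background in either group, and their mean level was 11.40 to 11.44 on primed and 12.04 to 12.06 on naive arrays. Of these, 6 were lower and 0 higher in primed cells by limma, also at an unadjusted p under 0.05 (1 higher after quantile normalization). Among the 6 were Dppa4 (-1.74), Pou5f1 (-1.06), Tdgf1 (-0.80) and Nanog (-0.61), while Lin28a (0.07) and Utf1 (-0.03) did not pass. Over all genes, 22.7% were lower and 21.8% higher by limma.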

How the data were processed

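Total RNA of 3 primed and 3 naive cultures was hybridised to Affymetrix mouse gene arrays. The submitters' processing notes name Partek 6.6 and RMA (robust multi-array averaging), by which the authors made the deposited log2 values; its options and the genome build are not stated. Over 35556 probe sets the array medians were 7.77 to 7.83, and replicate arrays correlated at 0.998 to 0.999 across genes. The number of arrays limits the precision. GEO's platform annotation gave 1 symbol for 21789 probe sets (several for 1621, none for 12146), and 21698 of these matched the RefSeq table of GRCm38.p6 by gene ID. The brightest probe set per gene was kept.

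Groups came from the cell type label, and limma 3.58.1 (R 4.3.3) was used to compare them (lmFit, eBayes, two-sided, no covariate, no further normalization). Within-array shifts between 2 members used an exact permutation test (scipy 1.17.1). The fit and the motif search were tested on simulated data. Replicate numbers come from the titles, which do not state what they share. The members, lists and motifs were chosen with earlier results of these data known. The named genes were all members, up to 4 genes with the largest difference of each other list among those that passed, and the 3 genes most like a member. Lmnb2, Cdx2, Elf5, neighbouring keratins and genes at the ends of the clusters were named after their values were seen. So were genes that did not pass in the linker, epithelial regulator, pluripotent and naive-state lists. Alternatives were other scalings, filters, probe set means, an intensity trend, array weights, a replicate block, a stricter threshold and leaving out each array. Sequences are from RefSeq.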

Additional observations from a re-analysis of the deposited data

How the results depend on the processing

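Under each alternative that could be computed, Krt7, Krt8, Krt18, Krt19, Des, Lmna and Lmnb1 stayed lower in primed cells and past the threshold. Their differences ranged from -2.00 to -1.86 for Krt7, -1.80 to -1.66 for Krt8, -1.40 to -1.24 for Krt18, -0.70 to -0.58 for Krt19, -1.68 to -1.53 for Des, -1.24 to -1.13 for Lmna and -0.48 to -0.34 for Lmnb1. Vim turned to 0.014 with quantile normalization (adjusted p = 0.85). Krt20, in background, turned to -0.0058 with quantile normalization, -0.068 with median centring, and ranged from -0.028 to 0.048 without each array in turn (-0.024, -0.011 and -0.028 without primed replicate 3, naive replicate 2 and naive replicate 3). It had no value under the filters on low signal. The pair shifts ranged from -0.44 to -0.36, from -1.38 to -1.20 and from -0.79 to -0.72 without each array in turn.

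Other keratins higher and lower in primed cells numbered 1 and 16 with median centring, 1 and 4 with the filter at the 40th percentile and 1 and 6 at an adjusted p under 0.01. Lamina partners higher in primed cells numbered 2 with median centring and 2 at an adjusted p under 0.01. Quantile normalization gave 1 linker and 1 pluripotent marker higher in primed cells, and the percentile filter and array weights each gave 1 endoderm marker higher. With median centring 5 endoderm and 7 muscle markers were lower. Without each array in turn, the counts of higher genes were 1 to 4 for other keratins, 2 to 3 for lamina partners, and 0 to 1 each for epithelial regulators and endoderm markers. Causes were not tested.

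With the replicate block, 7 members were lower and 0 higher, as without it, and 4172 genes were higher and 4344 lower in primed cells. Deviations of same-numbered arrays correlated at -0.11, 0.0015 and -0.02, so the numbers were not taken to pair the arrays. The table carries no detection calls, and Krt20 lay at the level of the receptor genes.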
